A study of Saccharomyces cerevisiae with 12 samples.

Results

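This comparison sets the budding yeast libraries carrying the dhh1 deletion directly against the libraries labelled dbp1, in 4 of the 12 RNA-seq libraries of the study. It covers 10799 annotated transcripts, which is every row of the table apart from the 92 spike-in controls, and 9433 of them were abundant enough to be tested. The study asked whether unstable long noncoding RNAs respond to the loss of cytoplasmic RNA helicases, and it sequenced rRNA-depleted total RNA from 6 labelled strains in 2 biological replicates each. All strains were BY4741, a laboratory haploid of mating type a with the markers his3Δ1, leu2Δ0 and met15Δ0, grown at 30 °C in rich glucose medium (YPD) to mid-log phase at an OD600 of 0.5. The wild type also carried ura3Δ0, while the deletion strains were described as ura3Δ with either dhh1Δ or dbp1Δ replaced by kanMX4, a drug-resistance cassette. Whether the replicates of a strain came from more than one transformant was not stated. Both groups thus share the marker deletions and the cassette, and they differ in which helicase gene it replaced.

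Dhh1 is a DEAD-box helicase of the cytoplasm that promotes mRNA decapping and represses translation, and decapping exposes an mRNA to the 5′ to 3′ exonuclease Xrn1. Ski2 is the helicase of the Ski complex, which threads RNA into the cytoplasmic exosome for decay from the 3′ end. Dbp1 is a paralogue of the translation initiation helicase Ded1. Xrn1-sensitive transcripts (XUTs), cryptic transcripts of the nuclear exosome pathway (CUTs) and Nrd1-terminated transcripts (NUTs) are classes of noncoding RNA named for the factor that removes or terminates them.

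The dbp1 label did not match the RNA. Values are given as rescaled density, which is the deposited number of reads per nucleotide after a scaling that sets the median ratio of protein-coding rows to 1. SKI2 (YLR398C, R64 chrXII:915156-919019) stood at 0.000484 and 0.000277 in the libraries labelled dbp1, from 2 reads and 1 read, and at 0.355 and 0.336 in the dhh1 libraries, from 1671 and 1584 reads. The 2 dhh1 libraries together held 890 times the SKI2 signal of the libraries labelled dbp1, with a 95% counting interval of 304 to 4319. DBP1 (YPL119C, R64 chrXVI:324411-326264), the gene named on the label, was present there at 0.0847 and 0.0713, from 170 and 125 reads, and at 0.104 and 0.0889 in dhh1. Its log2 difference of 0.29 (SE 0.17) did not pass the test, with an adjusted p of 0.172. In the libraries labelled ski2 it was DBP1 that was nearly absent, with 2 and 4 reads. The libraries labelled dbp1 are therefore called by their label throughout, and every direction below is the loss of Dhh1 RNA set against libraries that lack SKI2 RNA and contain DBP1 RNA.

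The dhh1 label did match. DHH1 (YDL160C, R64 chrIV:170410-171930) was at 0.0257 and 0.0271 in the dhh1 libraries, from 73 and 77 reads, and at 1.27 and 1.35 in the libraries labelled dbp1. The log2 difference was −5.38 (SE 0.06, adjusted p = 1.51e-11). ECM32, the helicase gene of another label, was at 0.131 and 0.152 in dhh1 against 0.214 and 0.207, a log2 difference of −0.56 (SE 0.13, adjusted p = 0.00687). SLH1, a relative of Ski2 that acts on stalled ribosomes, was at 0.242 and 0.234 against 0.234 and 0.239, and the groups overlapped. Reads assigned to genes specific to mating type a numbered 13907 to 35564 per library and those specific to type alpha 212 to 386, and the labelled mating type is a.

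**Figure D1:**
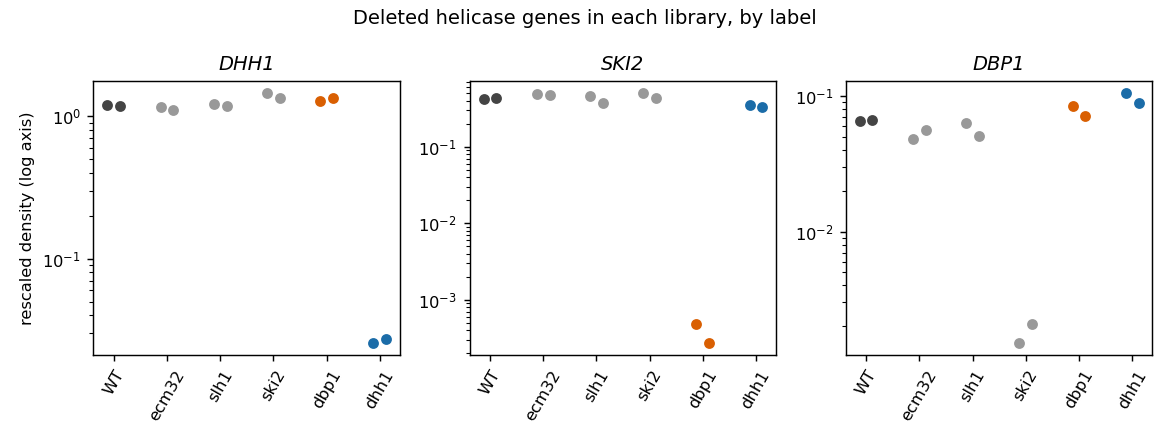
Rescaled density (log axis) of DHH1, SKI2 and DBP1 in each of the 12 libraries by label, 1 point per library. DHH1 is low in the dhh1 libraries, SKI2 is low in the libraries labelled dbp1 at 0.000484 and 0.000277, and DBP1 is low in the libraries labelled ski2.

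Depth, recovered from the smallest steps between values, ran from 8794142 to 17659622 reads per library, with 16629394 and 15870219 in dhh1 and 13000703 and 11279728 in the libraries labelled dbp1. Spike-ins took 1.22% to 2.69% of reads, the lowest share being in one wild-type library. The median absolute log2 difference between replicates was 0.127 in dhh1 and 0.133 in the libraries labelled dbp1. The transcripts were compared with limma on log2(rescaled density + 0.005191), so differences of low rows are understated, and a row was called at a Benjamini-Hochberg adjusted p under 0.05 over all 9433 rows. Errors are the SE of the log2 difference, with 2 libraries a group. In these bulk samples, a change of RNA level in every cell and a change in a share of the cells cannot be told apart.

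Upstream sequences of 3 genes show the elements discussed beside the genes they precede. Each run is 150 bases of the R64 reference (RefSeq), from 270 to 121 bases before the start codon, read 5′ to 3′ on the strand of the gene. Capitals mark the element on either strand. HSP12, which encodes a small membrane-protecting stress protein and rose in dhh1, has the stress response element AGGGG (as CCCCT) at 2 places in chrVI:106986-107135 on the plus strand. PHO5, a secreted acid phosphatase gene, has 1 CACGTG, the core bound by the phosphate regulator Pho4, in chrII:431072-431221 on the minus strand. PRM1, a gene for membrane fusion in mating, has 3 copies of TGAAACA (as TGTTTCA), the element bound by the mating regulator Ste12, in chrXIV:110647-110796 on the plus strand.
HSP12: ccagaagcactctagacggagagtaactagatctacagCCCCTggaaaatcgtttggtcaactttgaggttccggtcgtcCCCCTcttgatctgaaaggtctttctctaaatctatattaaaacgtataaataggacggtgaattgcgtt
PHO5: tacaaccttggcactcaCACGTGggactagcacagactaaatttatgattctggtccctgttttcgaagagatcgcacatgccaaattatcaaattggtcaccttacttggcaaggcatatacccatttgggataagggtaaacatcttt
PRM1: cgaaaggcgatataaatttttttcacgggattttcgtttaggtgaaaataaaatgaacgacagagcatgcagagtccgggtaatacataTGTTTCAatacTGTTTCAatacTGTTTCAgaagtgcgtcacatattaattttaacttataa

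Protein-coding genes were called in both directions, and against them the noncoding classes lay on the lower side in dhh1 on this scaling, which itself centres the protein-coding genes. Over all rows, 1770 were higher in dhh1 (18.8%) and 2708 lower (28.7%), together 47.5%, with a median log2 difference of −0.17. Of 5622 protein-coding genes, 1599 were higher (28.4%) and 1482 lower (26.4%), with a median of 0.00 that the scaling sets. The gene lists below are to be read beside these shares. At least 2-fold changes were called in 372 rows upward (3.94%) and 668 downward (7.08%), of which 328 and 179 were protein-coding. The dhh1 libraries did not overlap the libraries labelled dbp1 and were above them in 2733 rows (29%), and below them in 4599 (48.8%). Without the rescaling, the deposited values gave 632 rows higher and 4744 lower, 574 and 2814 of them protein-coding, and the median of all rows shifted to −0.51. With scaling to the spike-ins 281 rows were higher and 591 lower, 244 and 159 of them protein-coding.

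Among the called protein-coding genes, dhh1 lay outside the range of all other libraries more often than the dbp1 label did. Among the 3081 protein-coding genes called, both dhh1 libraries lay above the other 10 libraries in 1466 and below them in 1289. Those 10 include the libraries labelled dbp1 against which the genes were called, so these counts were in part set by the call. Genes not called were not counted, so no share of all 5622 protein-coding genes tested is given. Both libraries labelled dbp1 lay above the other 10 in 175 and below them in 129. In 342 called genes dhh1 was above and the dbp1 label below both wild-type libraries, and in 396 the order was turned round.

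**Figure D2:**
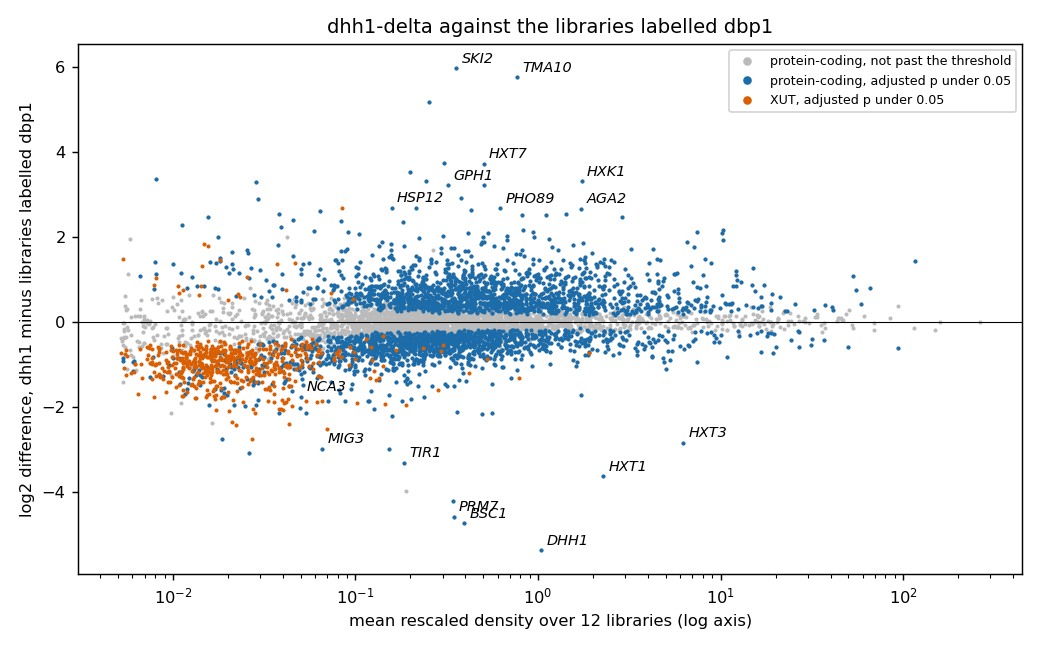
Mean rescaled density over the 12 libraries (log axis) against the log2 difference, dhh1 minus libraries labelled dbp1, 1 point per transcript, with protein-coding genes in grey or blue and called XUTs in orange. Called XUTs gather below 0 at low density, and TMA10 at 5.75 and HXT1 at −3.63 are among the labelled genes.

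The genes highest in dhh1 included stress, reserve-carbohydrate and low-glucose genes. TMA10, a stress-induced gene whose product associates with ribosomes, stood at 4.25 and 4.29 in dhh1 against 0.0631 and 0.0867 in the libraries labelled dbp1. The groups did not overlap, and the log2 difference was 5.75 (SE 0.21, adjusted p = 1.17e-07), the largest after SKI2 itself among abundant genes. RGI1, a gene of respiratory energy metabolism, was at 1.29 and 1.41 against 0.106 and 0.0872 (log2 difference 3.73). MPC3, the mitochondrial pyruvate carrier subunit used in respiration, was at 0.797 and 0.835 against 0.063 and 0.0682 (3.54). HXK1, the hexokinase made when glucose is short, was at 7.57 and 7.04 against 0.659 and 0.817 (3.31). HPF1, a cell wall mannoprotein gene, was at 2.12 and 2.27 against 0.211 and 0.252 (3.22). Every one of these dhh1 values exceeded the values of the libraries labelled dbp1 by more than the replicates of either group differed. YER053C-A, a small reading frame, differed by 5.17 (SE 0.32) and ATG41, an autophagy gene, by 3.32 (SE 0.15).

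Of 49 genes of the general stress response driven by Msn2 and Msn4, 28 were higher in dhh1 and 6 lower, with a median of 0.58 against 0.00 for protein-coding genes and −0.17 for all rows. HSP12, whose upstream elements are shown above, was at 0.596 and 0.666 in dhh1, 0.0848 and 0.103 in the libraries labelled dbp1, and 0.0269 and 0.0296 in the wild type. Its log2 difference was 2.69 (SE 0.17, adjusted p = 1.88e-06). The libraries labelled dbp1 were themselves above the wild type here, where the wild type held 10 and 17 reads. So were those labelled ecm32 at 0.0425 and 0.0606, slh1 at 0.0659 and 0.0752, and ski2 at 0.0685 and 0.073. RTC3, another stress gene, was at 1.59 and 1.55 against 0.172 and 0.239 (2.92). AGGGG or its complement lay within 300 bases before the start codon of 22.7% of the 5622 protein-coding genes, of 41.8% of the 328 genes at least 2-fold higher in dhh1, of 18.4% of the 179 at least 2-fold lower, and of 69.4% of the stress genes. TMA10 and GPH1 had no such match in that window.

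Glycogen and trehalose genes were largely higher, with 14 of 20 higher, 1 lower and a median of 0.84. GPH1, glycogen phosphorylase, was at 1.43 and 1.24 in dhh1 against 0.128 and 0.15, a log2 difference of 3.21 (SE 0.19). GLC3, the glycogen branching enzyme, was at 0.789 and 0.808 against 0.116 and 0.125 (2.68). GAC1, a regulatory subunit of the phosphatase that activates glycogen synthase, was at 0.0704 and 0.0564 against 0.00632 and 0.00796 (2.47). Genes for storing glycogen and the gene for mobilising it were thus higher in the same libraries.

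Nearly all respiratory genes were higher. Of 42 nuclear genes for the respiratory chain and ATP synthase, 40 were higher in dhh1 and 2 did not pass, with a median of 1.14. QCR10, a subunit of the cytochrome bc1 complex, was at 2.3 and 2.14 in dhh1 against 0.481 and 0.505 (log2 difference 2.16, SE 0.07, adjusted p = 7.9e-08). STF2, which acts on the ATP synthase inhibitor, was at 1.96 and 1.97 against 0.445 and 0.514 (2.02). CYC7, the cytochrome c isoform of low oxygen, was at 0.249 and 0.239 against 0.0295 and 0.0426 (2.61). In all these genes the groups were separate. In the citric acid cycle 9 of 14 genes were higher and 3 lower, with CIT1, citrate synthase, at 2.03 and 1.98 against 0.93 and 0.997 (1.05). Among genes encoded in mitochondrial DNA, 1 of 23 was higher and the others did not pass, and dhh1 was above in 12 without overlap.

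Mitochondrial ribosomal protein genes were also higher, 56 of 65 with 1 lower and a median of 0.59, led by MRPL28 at 0.786 and 0.855 against 0.271 and 0.342 (1.41). Of 137 cytosolic ribosomal protein genes 27 were higher and 16 lower, with a median of 0.04, or −0.35 on the deposited scale. RPL4B was the member that differed most, at 14.3 and 13.1 against 6 and 6.83 (1.09). Ribosome biogenesis genes lay on the lower side, with 37 of 75 lower, 3 higher and a median of −0.24. MPP10, of the small-subunit processome, was at 0.335 and 0.359 against 0.631 and 0.588 (−0.80). TIF6, a maturation factor of the large subunit, went the other way at 9.93 and 9.43 against 3.66 and 3.46 (1.44). All 11 histone genes were higher in dhh1, with a median of 0.52 and HHT1 highest at 20.4 and 21.9 against 9.38 and 9.22 (1.18).

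Several of these lists hold short genes, and length moved with the difference. The respiratory genes had a median coding length of 451.5 nt, the histone genes 399 nt and the mitochondrial ribosomal protein genes 714 nt, against 1206 nt for all 5622 genes. Some lists on the lower side held longer genes. The median was 1641 nt for ribosome biogenesis and, for lists described below, 2058 nt for nonsense-mediated decay and 1628 nt for Hsf1 chaperones. The glycogen and trehalose genes, largely higher, were long as well at 2122 nt. The median log2 difference was 0.15 in the shortest of 10 bins of genes by length, 0.21 in the next and −0.24 in the longest, and 41.3% of the second bin were higher against 9.61% of the longest. Across genes, Spearman's rho with length was −0.24. The difference between the replicates of a label also moved with length, in some labels only. Its rho was 0.18 for dhh1, 0.13 for ecm32, 0.37 for ski2 and 0.45 for slh1. It was 0.00 for the libraries labelled dbp1 and −0.03 for the wild type. The cytosolic ribosomal protein genes, also short at a median of 432 nt, had a median difference of 0.04. The part of length in the list results was not tested.

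**Figure D3:**
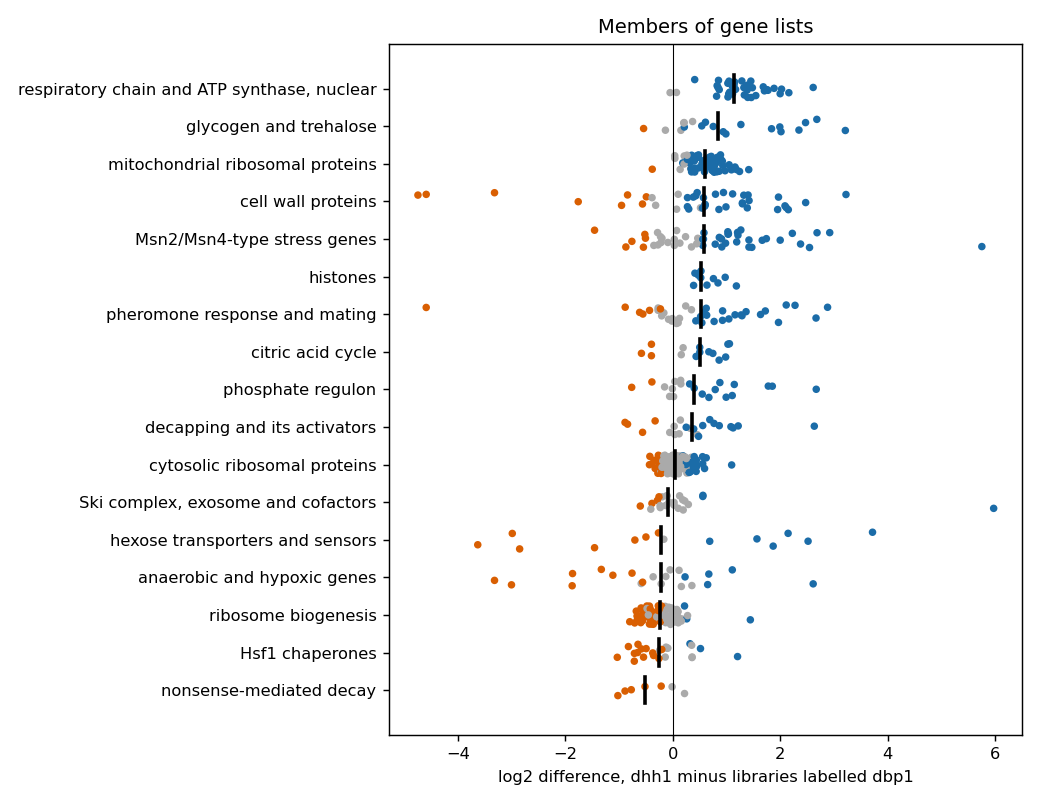
Log2 difference, dhh1 minus libraries labelled dbp1, of each tested member of 17 gene lists, 1 point per gene, blue where called higher, orange where called lower and grey where not past the threshold, with the list median as a black bar. Respiratory genes have a median of 1.14 and nonsense-mediated decay genes of −0.52.

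Glucose transport genes moved in both directions. HXT7, a high-affinity hexose transporter, was at 2.18 and 2.18 in dhh1 against 0.142 and 0.182 in the libraries labelled dbp1, a log2 difference of 3.72 (SE 0.14, adjusted p = 1.69e-07). Its near-identical neighbour HXT6 shares reads with it, so the split between that pair is uncertain. HXT1, the low-affinity transporter of high glucose, was at 0.235 and 0.208 against 2.99 and 2.62 (log2 difference −3.63, SE 0.11, adjusted p = 4.96e-08). HXT3, another low-affinity transporter, was at 1.03 and 0.982 against 7.09 and 7.54 (−2.85). MIG3, a transcriptional repressor related to Mig1, was at 0.00521 and 0.00649 against 0.0868 and 0.0782 (−2.99). In all, 6 of the 14 tested transporter and sensor genes were higher and 7 lower, and the median of −0.22 sits between the 2 sets. The wild-type values of HXT1, 2.98 and 3.2, were close to those of the libraries labelled dbp1.

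Most glycolysis genes did not pass, with 5 of 20 higher, 1 lower and a median of 0.04, or −0.35 on the deposited scale. ENO1, the minor enolase in glucose, was at 18.6 and 16.1 against 5.09 and 5.19 (log2 difference 1.75). PYK2, the pyruvate kinase isoform repressed by glucose, was at 0.771 and 0.661 against 0.214 and 0.247 (1.61). TDH1, a glyceraldehyde-3-phosphate dehydrogenase isoform, was at 1.52 and 1.27 against 0.496 and 0.514 (1.45). Glucose-repressed carbon-use genes counted 12 of 30 higher and 2 lower, with a median of 0.28 that becomes −0.05 on the deposited scale.

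Beyond DHH1, the genes lowest in dhh1 were a neighbouring pair on chromosome IV. BSC1 (YDL037C, R64 chrIV:384601-385587), known for stop-codon readthrough, was at 0.0198 and 0.0198 against 0.591 and 0.748, a log2 difference of −4.75 (SE 0.23, adjusted p = 4.76e-07). PRM7 (YDL039C, R64 chrIV:381985-384081), a pheromone-regulated gene on the same strand beside it, was at 0.0215 and 0.0174 against 0.541 and 0.636 (−4.59, SE 0.27). The wild type held 0.583 and 0.555 of BSC1, and other labels lay between, with 0.382 and 0.238 in ecm32 and 0.217 and 0.164 in slh1. PRM7 likewise stood at 0.193 and 0.139 in slh1 against 0.422 and 0.531 in the wild type. The genes flanking the pair did not pass, NAT1 differing by 0.01 (adjusted p = 0.936) and PUS9 by −0.33 (adjusted p = 0.051).

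A second adjacent group lay near the right end of chromosome III. RDS1, a putative zinc-cluster regulator of drug sensitivity, was at 0.0337 and 0.0363 against 0.162 and 0.163 (−2.06), AAD3, a putative aryl-alcohol dehydrogenase gene, at 0.0381 and 0.038 against 0.184 and 0.207 (−2.21), and ADH7, an alcohol dehydrogenase gene next to them, differed by −1.31 (adjusted p = 0.0065). Of 208 protein-coding genes within 25 kb of a chromosome end, 38 were higher and 72 lower, with a median of −0.24, against 1561 and 1410 of the 5414 others, with a median of 0.01. YBL113C, a subtelomeric helicase-like reading frame, was at 0.0111 and 0.0089 against 0.0607 and 0.0634 (−2.15), although its copies elsewhere share reads with it.

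Genes of low oxygen were among the lowest, though their list was mixed. TIR1, a cell wall mannoprotein of anaerobic growth, was at 0.015 and 0.0243 in dhh1 against 0.236 and 0.241 (log2 difference −3.32, adjusted p = 8.62e-07). ANB1, the hypoxic form of the translation factor eIF5A, was at 0.0149 and 0.00813 against 0.143 and 0.112 (−3.0). The libraries labelled dbp1 were below the wild type, 0.19 and 0.288, for ANB1. Of the list, 5 of 21 were higher and 8 lower, with a median of −0.22, and CYC7 was among those higher. Of the 8 seripauperin genes tested, a subtelomeric family whose near-identical members share reads, 4 were lower and none higher.

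CUP1-2, a copper metallothionein gene, was at 0.00914 and 0.00911 in dhh1 and at 0.167 and 0.406 in the libraries labelled dbp1, a log2 difference of −4.21 (SE 0.72, adjusted p = 0.00103). Its identical copy CUP1-1 differed by −3.99 (SE 2.38) and did not pass, with an adjusted p of 0.192, and it read 0 in one wild-type library. Reads cannot be assigned between these copies. Of 15 copper-handling genes, 4 were higher and 4 lower, 26.7% each way and near the 28.4% and 26.4% of all protein-coding genes. COX17, a copper chaperone of cytochrome oxidase, was at 1.25 and 1.6 against 0.416 and 0.397 (1.79).

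The cell wall list, with 29 of 42 higher, 8 lower and a median of 0.58, held both HPF1 and the lowest gene BSC1.

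Decapping genes were higher more often than lower. Of 22 decapping genes, 11 were higher in dhh1 (50%) and 4 lower (18.2%), against 28.4% and 26.4% of all protein-coding genes. Their median of 0.36 becomes −0.03 on the deposited scale. EDC1, an enhancer of decapping, was at 1.41 and 1.66 against 0.223 and 0.263 (log2 difference 2.63, SE 0.21, adjusted p = 9.27e-06). Its paralogue EDC2 was at 1.65 and 1.26 against 0.593 and 0.641 (1.22). PAT1, a partner of Dhh1 in decapping, was at 1.83 and 1.64 against 0.748 and 0.839 (1.12). DCP2, the catalytic subunit of the decapping enzyme, differed by −0.84, DCP1, its activating subunit, by 0.56, and XRN1 by −0.56. Those 3 were chosen after their values were seen, and all passed the test. PAB1, the poly(A)-binding protein gene, was at 4.49 and 4.21 against 8.04 and 8.8 (−0.95).

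Most genes of 3′ decay did not pass. Of 24 Ski and exosome genes tested, SKI2 included, 3 were higher, 4 lower and 17 did not pass, with a median of −0.09. MTR4, the nuclear helicase related to Ski2, was at 0.63 and 0.628 against 0.997 and 0.925 (−0.61), and RRP40, an exosome cap subunit, at 1.29 and 1.14 against 0.848 and 0.793 (0.56). Nonsense-mediated decay genes were lower in 5 of 7, the other 2 not passing, with a median of −0.52. NMD2, the Upf2 factor, was at 0.103 and 0.111 against 0.214 and 0.232 (−1.02, adjusted p = 0.0001). NAM7, the Upf1 helicase, was at 0.559 and 0.517 against 0.921 and 0.927 (−0.77). The wild type stood at 0.2 and 0.176 for NMD2 and at 0.805 and 0.969 for NAM7. Deadenylase genes of the Ccr4-Not and Pan complexes counted 5 of 13 higher and 2 lower, with a median of 0.06, or −0.32 on the deposited scale, and with CDC36, a Not subunit, at 0.997 and 1.05 against 0.653 and 0.662 (0.63).

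Chaperone genes lay mostly lower. Of 24 genes under Hsf1, 13 were lower in dhh1 and 3 higher, with a median of −0.25. HSP82, the inducible Hsp90, was at 1.01 and 1.12 against 2.22 and 2.14 (−1.03, adjusted p = 0.000306). SSE1, a nucleotide exchange factor for Hsp70, was at 7.31 and 6.99 against 12.9 and 12.5 (−0.83). HSP26, a small heat shock protein, was at 0.166 and 0.165 against 0.0733 and 0.0646 (1.21). The libraries labelled dbp1 were above the wild type for HSP82, where the wild type stood at 1.71 and 1.64.

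In 6 of 21 phosphate genes and 12 of 39 mating genes, both libraries labelled dbp1 lay below both wild-type libraries while both dhh1 libraries lay above them. This order held in 342 of the 3081 called protein-coding genes and was not counted over all those tested. The list counts take every tested member, called or not, so they cannot be set against that share. A dbp1 label below both wild-type libraries was not particular to these lists. It was seen in 14 phosphate and 22 mating genes, and in 93 of 137 cytosolic ribosomal protein, 18 of 25 ergosterol and 14 of 20 glycolysis genes. Its share over all protein-coding genes was not counted, so no excess in any of these lists is shown. PHO89, a sodium-phosphate cotransporter of phosphate starvation, was at 1.38 and 1.29 in dhh1, 0.187 and 0.226 in the libraries labelled dbp1 and 0.589 and 0.69 in the wild type. The direct log2 difference was 2.67 (SE 0.11, adjusted p = 3.14e-07). PHO5, whose CACGTG is shown above, was at 3.95 and 3.8, 1.07 and 1.07, and 1.46 and 1.56 in the same order, a direct difference of 1.85 (SE 0.09). VTC1, of the polyphosphate polymerase, was at 19.1 and 18.1, 8.32 and 8.95, and 11.8 and 12 (1.11). All 3 genes were lower in both libraries labelled dbp1 than in every other library. Of 21 phosphate genes, 12 were higher and 2 lower, with a median of 0.40. Set side by side, the list's median against the wild type was 0.25 for dhh1 and −0.26 for the libraries labelled dbp1, which share those wild-type libraries. CACGTG lay in the 300-base window of 3.58% of all 5622 genes and of 47.6% of the phosphate genes, PHO89 not among them.

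Of the mating genes described here, AGA2, FIG1, PRM1 and FUS1 were among those 12. AGA2, the binding subunit of a-agglutinin, was at 5.2 and 5.5 in dhh1 against 0.823 and 0.853 in the libraries labelled dbp1, with 0.884 and 1.28 in the wild type (direct difference 2.67, SE 0.15, adjusted p = 1.21e-06). FIG1, a membrane protein of mating, was at 0.0994 and 0.103 against 0.00864 and 0.00989 (2.88). PRM1, with 3 elements in the sequence shown above, was at 0.204 and 0.219 against 0.0463 and 0.0436, with 0.064 and 0.105 in the wild type (2.11). FUS1, needed for cell fusion, was at 0.405 and 0.415 against 0.166 and 0.164 (1.29). FUS3, the mating MAP kinase, was at 0.634 and 0.64 against 0.464 and 0.48 (0.43), and its dhh1 values lay within the wild-type values of 0.576 and 0.716. The genes of the secreted pheromone itself were higher as well, MFA1 at 8.27 and 11.1 against 3.16 and 2.66 (1.72) and MFA2 at 30.8 and 33.9 against 14.2 and 12.6 (1.27). The wild type stood at 2.43 and 3.2 for MFA1 around the libraries labelled dbp1, and at 9.5 and 11.5 for MFA2, below them. Of 39 mating genes, 21 were higher and 6 lower with a median of 0.52, PRM7 being the lowest. The list's median against the shared wild type was 0.18 for dhh1 and −0.16 for the libraries labelled dbp1. TGAAACA or its complement lay in the window of 7.08% of all genes and of 46.2% of the mating genes, though not of FIG1.

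**Figure D4:**
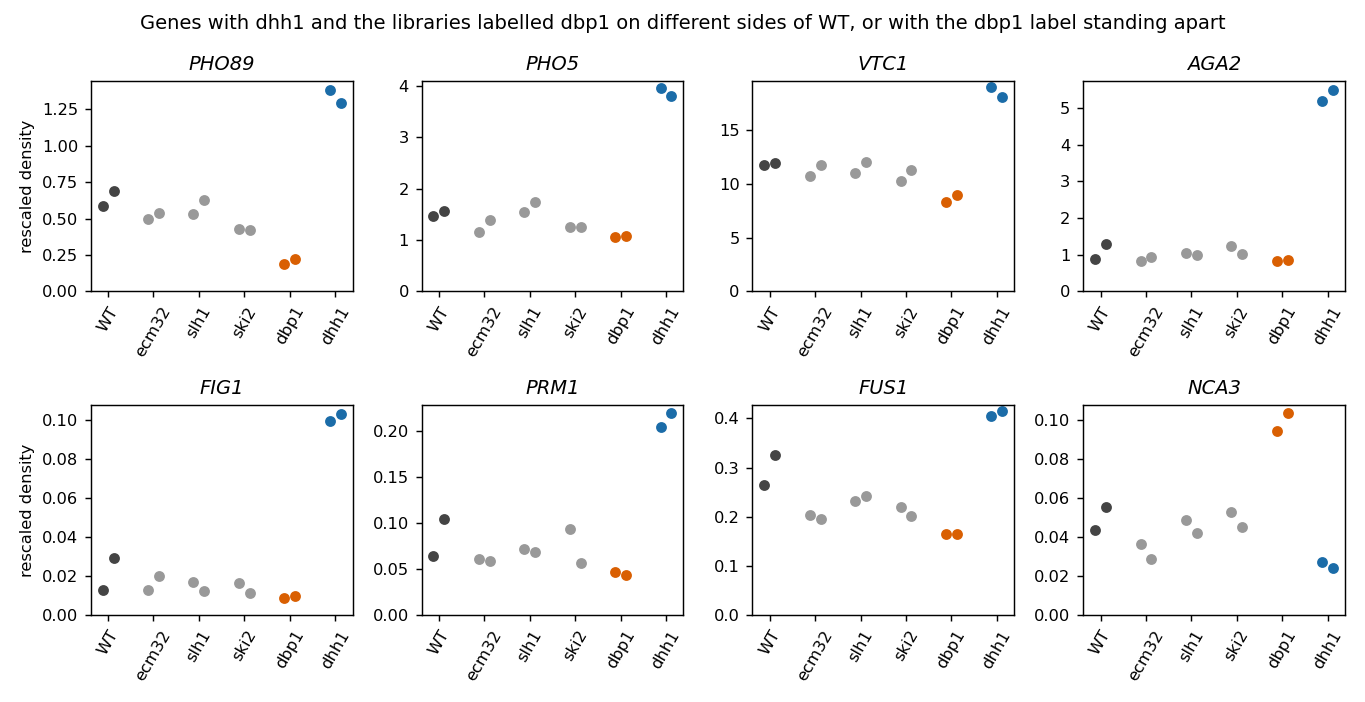
Rescaled density (linear axis from 0) of 8 genes in the 12 libraries by label, 1 point per library. PHO89, PHO5 and FUS1 are lowest in the libraries labelled dbp1 and highest in dhh1, and NCA3 shows the opposite order.

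Some genes stood higher in the libraries labelled dbp1 than in all 10 others. NCA3, a gene linked to mitochondrial ATP synthase expression, was at 0.0943 and 0.104 there, 0.0272 and 0.0239 in dhh1 and 0.0435 and 0.0552 in the wild type (−1.76, SE 0.17, adjusted p = 3.37e-05). RGM1, a zinc-finger gene, was at 0.0848 and 0.1 against 0.0434 and 0.0392 (−1.07). USE1, a SNARE gene of Golgi-to-endoplasmic reticulum transport, was at 0.191 and 0.198 against 0.101 and 0.12 (−0.80). NBL1, of the chromosomal passenger complex, was at 0.208 and 0.211 against 0.129 and 0.106 (−0.81). MATALPHA1 rested on 14 reads against 6.

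Genes beside the deletions were inspected as well. Next to DHH1, YDL159W-A read 8 and 7 in dhh1 and 0 in the other 10 libraries, while STE7, the following gene, differed by 0.12 (adjusted p = 0.326) and MHF2, on the other side, by 0.35 (adjusted p = 0.069). YDL159W-A was chosen after its values were seen. Beside SKI2, BDF1, a chromatin reader of acetylated histones, differed by −0.44 (adjusted p = 0.00393) and AFG2 by 0.01 (adjusted p = 0.918).

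By count and median the 3 noncoding classes lay lower in dhh1, except that NUTs did not under quantile normalization. Of 1401 XUTs tested, 532 were lower and 22 higher, with a median log2 difference of −0.56. Of 823 CUTs, 252 were lower and 22 higher with a median of −0.49, and of 1081 NUTs 363 were lower and 63 higher with a median of −0.44. XUTs took 0.18% and 0.183% of all reads in dhh1, 0.327% and 0.33% in the libraries labelled dbp1 and 0.298% and 0.281% in the wild type. CUTs took 0.0741% and 0.0729% against 0.0994% and 0.102%, and 0.114% and 0.115% in the wild type, above both groups. NUTs took a larger share in dhh1, 5.89% and 5.49% against 4.93% and 4.62% and, in the wild type, 5.07% and 4.96%. Of the 37 NUTs with a mean rescaled density above 1.28, 22 were higher and 2 lower, with a median of 0.42. Against the shared wild type the median of these 37 was 0.12 in dhh1 and −0.25 in the libraries labelled dbp1. The share of snoRNA reads, given below, was also larger in dhh1, and whether the 2 are linked was not tested. Side by side, the XUT median against the shared wild type was −0.48 in dhh1 and 0.03 in the libraries labelled dbp1. The count of lower XUTs was 341 without the first dhh1 library, 332 without the second, and 336 and 360 without the first and second libraries labelled dbp1, while that of CUTs was 142 to 156 and that of NUTs 195 to 213. The size of the class medians depended on the scaling, and for NUTs the direction too. Quantile normalization gave −0.07 for XUTs with 154 lower and 94 higher, −0.06 for CUTs and 0.03 for NUTs.

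Noncoding rows were of low density, where protein-coding genes also lay lower, so classes were set side by side at like density. Between 0.02 and 0.04, the median was −0.61 for 367 XUTs, −0.62 for 207 CUTs, −0.51 for 175 NUTs and −0.30 for 198 protein-coding genes. Between 0.04 and 0.08 it was −0.63 for 116 XUTs, −0.44 for 88 CUTs, −0.29 for 75 NUTs and −0.29 for 318 protein-coding genes. XUTs thus lay below protein-coding genes of like density in these bins, as a description without a test.

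**Figure D5:**
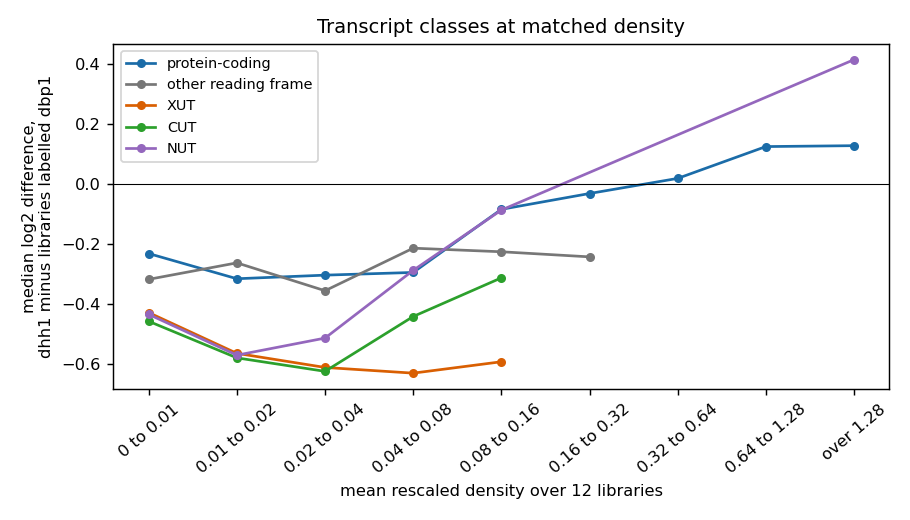
Median log2 difference, dhh1 minus libraries labelled dbp1, of each transcript class in bins of mean rescaled density, for bins with at least 20 transcripts, and lines join the bins of a class across any bin left out. Between 0.04 and 0.08, XUTs lie at −0.63 and protein-coding genes at −0.29.

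Single noncoding transcripts moved in both directions. XUT0649 was at 0.215 and 0.324 in dhh1 against 0.0379 and 0.0358 (log2 difference 2.68, SE 0.21, adjusted p = 8.21e-06), and XUT1264 and XUT0863 each differed by 1.37. XUT1525 was at 0.0105 and 0.011 against 0.0887 and 0.0836 (−2.52, SE 0.14, adjusted p = 1.08e-06). XUT0275 held 3 reads in dhh1 against 31, a ratio of 0.0794 with a 95% counting interval of 0.0155 to 0.255, and XUT0419 differed by −2.42. CUT648 was the lowest of the abundant CUTs at 0.0111 and 0.00554 against 0.184 and 0.174 (−3.80), and CUT122 was the highest at 0.15 and 0.155 against 0.0402 and 0.0345 (1.89). Among NUTs, NUT1459 was at 0.702 and 0.695 against 0.0707 and 0.065 (3.27), but its reads, 691 and 686 in dhh1 and 61 and 49 in the libraries labelled dbp1, were nearly those of the gene ATG41, 691 and 685 and 61 and 47. NUT0227 and NUT0968 carried the same reads in all 12 libraries as HSP12 and MIG3, and so, like NUT1459 with ATG41, are not independent of those genes. In all, 6 of 1333 NUT rows with at least 50 reads duplicated a gene exactly, and no XUT or CUT row did. Near copies such as NUT1459 are not among those 6, and partial sharing of reads with genes was not counted.

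Stable small RNAs and the plasmid went separate ways. Of 76 snoRNAs, 30 were higher in dhh1 and 4 lower, with a median of 0.46, and they took 8.42% and 7.61% of reads against 6.28% and 5.72%. Against the shared wild type their median was 0.01 for dhh1 and −0.34 for the libraries labelled dbp1. In the deposited values the median snoRNA ratio was nearly equal in all libraries, from 1.01 to 1.02, and on that scale the median difference was 0.08. How the authors set their factor is not given in the sources used here. All 4 genes of the 2-micron plasmid, a multicopy circle carried by most laboratory strains, were lower in dhh1. R0010W was at 0.109 and 0.0979 against 0.372 and 0.424 (−1.89, SE 0.13), and R0030W at 0.162 and 0.129 against 0.397 and 0.439 (−1.50).

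Further lists covered nutrient pathways, autophagy, meiosis and translation, beside 28.4% higher and 26.4% lower among all protein-coding genes. Thiamine and vitamin B6 genes were lower in 8 of 20 and higher in 1 with a median of −0.38, THI20, a kinase of thiamine synthesis, being at 0.0502 and 0.0533 against 0.116 and 0.111 (−1.06). Amino acid synthesis genes under Gcn4 were higher in 19 of 49 and lower in 9 with a median of 0.09, or −0.30 on the deposited scale, LYS1, the last enzyme of lysine synthesis, being at 0.598 and 0.627 against 0.294 and 0.288 (1.06). Autophagy and vacuolar protease genes were higher in 15 of 28 and lower in 5 with a median of 0.41, with ATG33, a mitophagy gene, at 0.363 and 0.36 against 0.0907 and 0.0977 (1.88). Meiosis and sporulation genes were lower in 13 of 28 and higher in 1 with a median of −0.39 that turns to 0.09 under quantile normalization. RIM4, a translational repressor of meiosis, was the member that was higher, at 0.0689 and 0.0574 against 0.0129 and 0.0109 (2.00). Translation factor genes were lower in 15 of 37 and higher in 6, with a median of −0.17.

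The list counts depended on the scaling. With spike-in factors 28 respiratory genes, 16 stress genes, 14 cell wall genes, 10 mating genes, 8 glycogen and trehalose genes, 5 phosphate genes, 4 mitochondrial ribosomal protein genes, 3 decapping genes, 1 histone gene and 0 genes of the citric acid cycle were called higher by limma (4 of the citric acid cycle had an unadjusted p under 0.05), and with the deposited values 38, 21, 18, 14, 11, 7, 22, 5, 4 and 5. Lower calls were lost with spike-in factors too, with 0 of 75 ribosome biogenesis genes (4 at an unadjusted p under 0.05), 0 of 7 nonsense-mediated decay genes (3 unadjusted), 1 of 24 Hsf1 genes, 1 of 37 translation factor genes, 2 of 20 thiamine and vitamin B6 genes and 6 of 28 meiosis genes lower by limma. On the deposited values 63, 6, 18, 28, 15 and 14 of these were lower. The medians moved less than the counts. With spike-in factors they were 1.08 for respiratory, 0.53 for mitochondrial ribosomal protein, −0.30 for ribosome biogenesis and −0.58 for nonsense-mediated decay genes. The spike-in factors of the 2 wild-type libraries, which enter the shared estimate of spread, were 0.506 and 1.215. Their part in the lost calls was not tested.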

How the data were processed

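Per the labels' protocols, RNA was extracted with hot phenol, depleted of rRNA and made into libraries with the TruSeq Stranded mRNA kit. The submitters' processing notes name, with no roles given here, featureCounts 2.0.0, build R64, Trim Galore, DESeq2 and HISAT2 2.2.0. The deposited values are a signal density, reads per nucleotide divided by a factor per library, by the authors. Each column was rescaled by the median ratio over 5917 rows with identifiers starting with Y. Whole reads were recovered from the value steps (tolerance 0.01 read) for 10767 of 10767 rows with reads and used for depth and counting intervals, which cover counting error only.

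Rows with a mean over 12 libraries above 0.005191, which also served as the pseudocount, were fitted with limma 3.58.1 (R 4.3.3, mean trend) in 1 model of all 6 labels with 6 residual degrees of freedom, and p-values were adjusted by Benjamini-Hochberg over 9433 rows. An exact permutation test of 2 against 2 libraries cannot go below p = 0.333. Named genes were the 5 helicase genes, the 12 highest and 12 lowest called protein-coding genes with separate groups and a mean of at least 10 pseudocounts, leading noncoding rows, up to 3 members of each of 38 lists by size of difference, and up to 6 genes each way where the dbp1 label stood apart or lay across the wild type from dhh1. Genes named as neighbours were taken for their position, and the 2-micron rows for their class. Members and lists were chosen with earlier results of these data known. Features used Python 3.11.15, the RefSeq annotation of R64 and both strands for motifs. Alternatives changed the scaling, pseudocount, filter, libraries, block, trend and test. The fit was tested on simulated data. P-values measure the spread between these libraries.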

Additional observations from a re-analysis of the deposited data

Results flagged for a closer look

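In 342 called protein-coding genes dhh1 was above and the dbp1 label below both wild-type libraries, and in 396 the reverse held. Of these, 6 each way were named by the size of the direct difference. These 12 genes were picked because dhh1 and the libraries labelled dbp1 lay on opposite sides of both wild-type libraries. That the direct log2 difference passed limma's threshold was also a condition of the choice, so neither trait is a result about them. Upward in dhh1 were MPC3 by 3.54, FIG1 by 2.88, PHO89 by 2.67, AGA2 by 2.67, PRM2 by 2.28 and PRM1 by 2.11. Downward were DHH1, the deleted gene, with −5.38, BSC1 with −4.75, PRM7 with −4.59, YCL021W-A with −2.16, YBL113C with −2.15 and RDS1 with −2.06. The 2 sides were unequal in size, since against the wild type PHO89 differed by 1.06 in dhh1 and by −1.61 in the libraries labelled dbp1, whereas BSC1 differed by −4.52 and 0.22. The dbp1 side was −0.79 for FIG1, −0.42 for MPC3, −0.34 for AGA2, 0.31 for PRM7 and 0.05 for YCL021W-A. For YCL021W-A the libraries labelled dbp1 stood at 0.743 and 0.722 and the wild type at 0.696 and 0.721. PRM2, a pheromone-regulated gene, stood at 0.0267 and 0.0309 in dhh1, 0.00197 and 0.00169 in the libraries labelled dbp1 and 0.011 and 0.0147 in the wild type.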

How the results depend on the processing

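Of 2175 recalculations of the 147 named transcripts, 2074 kept direction and side of the threshold, 84 were no longer called, 8 became called and 9 changed sign, all of uncalled genes. Those 9 were DBP1 (−0.073), SLH1 (−0.37), HIS3 (−0.28) and LYS2 (−0.32) on the deposited values, SLH1 with spike-in factors (−0.056), HIS3 (−0.032) and LYS2 (−0.15) under quantile normalization, and SLH1 without 1 of the 4 libraries, its values running from −0.019 to 0.034.

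Counts are given as higher and lower in dhh1, and the cause was not tested. The deposited values gave 632 and 4744 of all rows, 574 and 2814 protein-coding genes, 10 and 410 CUTs, 23 and 576 NUTs, and 7 XUTs higher. Spike-in factors gave 281 and 591 of all rows, 244 and 159 protein-coding genes, 9 and 211 XUTs, 8 and 103 CUTs, and 11 and 68 NUTs. Quantile normalization gave 94 and 154 XUTs, 47 and 65 CUTs, and 106 and 76 NUTs. A mean density above 10 pseudocounts, which tests fewer rows, gave 1545 of all rows lower, 3 and 56 XUTs, 10 and 35 CUTs, and 33 NUTs lower. Leaving out 1 of the 4 libraries gave 332 to 360 XUTs lower and 11 to 19 higher, 142 to 156 CUTs lower and 14 to 19 higher, 195 to 213 NUTs lower and 38 to 51 higher.

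Same-numbered dhh1 and dbp1 libraries did not deviate together across rows (correlation −0.03), and the main fit did not pair them. With 2 libraries a group, this correlation cannot exclude a batch shared by same-numbered libraries. A replicate block gave 1749 higher and 2656 lower, and 4298 of its 4405 calls were shared with the fit without it. Depth limits rows of few reads, where 1 read moves the value.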
